A study of Mus musculus with 12 samples.

Results

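Cardiac macrophages (Mφ) from mice that had received isoproterenol for 28 days, the heart failure (HF) group, were compared with those from mice that had received it for 14 days, the early concentric hypertrophy (ECH) group. Isoproterenol is an agonist of β-adrenergic receptors, and it was delivered by osmotic pump at 30 mg/kg/day at both times. The groups were taken from the treatment labels, and the comparison used 8 of the 12 libraries of the series, 4 of HF and 4 of ECH. The other 4 libraries came from control (Ct) mice with saline pumps, with an infusion time not given in the sources used here. All mice were C57BL6/J, and the methods describe adult males. Hearts were digested, CD45+ cells were enriched on beads, and live CD14+/CD64+ cells were sorted by FACS from a CD11b+ gate. The comparison addressed which Mφ transcripts differ between the early hypertrophied and the failing heart under the same drug and dose. The days of infusion and the stage of the heart go together in these groups, and they cannot be told apart.

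The heart holds resident Mφ, which maintain themselves locally, clear dying cells and cell debris and carry markers such as Timd4 and Lyve1, and it also receives Ccr2+ monocytes that become Mφ when the muscle is stressed. Mφ respond to β-adrenergic agonists through cAMP. They also respond to glucocorticoids, which enter the cell, bind their receptor and raise a set of target genes that includes Fkbp5 and Tsc22d3, and they carry a circadian clock in which Per and Cry proteins hold back their own transcription.

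The 8 libraries were deep and of similar size, with 103926379 to 111180291 counts assigned to genes. In ECH, 15557 to 15940 gene symbols had at least 1 count. In HF, 13600 to 15211 had, and the lowest number was that of HF library 1. The mean was 15787.5 ± 173 (SD, n = 4) in ECH and 14753.5 ± 771 (SD, n = 4) in HF, and the HF range lay wholly below the ECH range (two-sided exact permutation test, p = 0.0286, the smallest this design allows). The difference in genes detected per library was −1034, and −649.5 without HF library 1. HF 1 had no count for 188 genes that the other HF libraries held well above 0, against 2 to 3 such genes in each of HF 2 to 4. Values are CPM, counts scaled to a common library total with the trimmed mean of M-values (TMM), and log2 fold changes are HF minus ECH with their standard error (SE). The genes behind the sort were present in every library. Cd14 was at 2139 to 2993 CPM in ECH and 1713 to 2396 in HF, Fcgr1, which encodes CD64, at 71.5 to 182 and 135 to 176, and Itgam, which encodes CD11b, at 636 to 787 and 407 to 702. The Mφ gene Csf1r was at 3583 to 4586 CPM over the 8 libraries. Adgre1, which encodes F4/80, was at 755 and 579 CPM in ECH 3 and 4 and 1105 to 1257 in HF, and was higher than that pair at an FDR of 0.0361 but by less than 2-fold (log2 fold change 0.81), with −0.17 against ECH 1 and 2. Of the 15 sort and identity genes, 6 were higher and 2 lower against ECH 3 and 4 at an unadjusted p under 0.05, 40% and 13.3% against 8.51% and 7.73% of all genes. Cebpa, a transcription factor of myeloid identity, was at 40.2 to 46.9 CPM in ECH and 29.8 to 39 in HF, without overlap and with a log2 fold change of −0.41 ± 0.14 (unadjusted p = 0.0108).

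Over the whole transcriptome the groups were close relative to the spread between libraries. Of 14608 genes tested by edgeR's quasi-likelihood method on all 12 libraries, 0 (0%) reached a false discovery rate (FDR) under 0.05 with a fold change of at least 2, and the lowest FDR was 0.338. The spread between libraries of a group was wide, with a biological coefficient of variation of 60.8%. At an unadjusted p under 0.05, 410 genes (2.81%) were higher in HF and 755 (5.17%) were lower. The median log2 fold change over all genes was −0.02, and 48% of genes were positive. For 491 genes (3.36%) every HF library lay above every ECH library, and for 520 (3.56%) every HF library lay below. Other methods on the same counts gave calls at the same limits. DESeq2 called 3 genes higher in HF (0.0205%) and 44 lower (0.301%), and edgeR's likelihood ratio test called 3 higher (0.0205%) and 45 lower (0.308%). They shared 38 genes, which is 38 of the 47 DESeq2 calls and 38 of the 48 likelihood ratio calls, and 29 of the shared genes had a mean of at least 1 CPM. These 29 were 26 that fell in HF, among them the neutrophil granule genes Ngp, Ltf and Camp, and 3 that rose. A gene is said to have risen or fallen only where a test called it, and that test is named. All other differences are given as values. A call against ECH 3 and 4 alone, a comparison described below, is not listed for every gene. Log2 fold changes and their SE are edgeR's throughout.

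The ECH libraries did not form a single group. The library numbers in the labels run from 1 to 6 in each of 2 sets, 1 of them with the Ct libraries and ECH libraries 1 and 2, the other with ECH libraries 3 and 4 and the HF libraries. That these sets were prepared apart was inferred from the numbers and is not stated. ECH 3 and 4 differed from ECH 1 and 2 in 58 genes (0.397%) at the same limits of FDR and fold, 17 higher and 41 lower in ECH 3 and 4. HF was therefore also set against each pair in a model with a mean for each. Against ECH 3 and 4, which share its inferred set, 124 genes were higher in HF (0.849%) and 148 lower (1.01%). Against ECH 1 and 2, 0 genes were called (0%), with 66 higher (0.452%) and 174 lower (1.19%) at an unadjusted p under 0.05. These comparisons share the HF libraries, so their values are given side by side and not as separate evidence. In the sample codes of the titles, ECH 3 and 4 share their first part, as do HF 1 and 2, Ct 1 and 2 and Ct 3 and 4, while ECH 1 and ECH 2 do not. The labels do not say what a shared code marks, and the counts of 58 and 272 take ECH 3 and 4 as independent libraries. Whether the ECH pairs differ by mouse or by library set cannot be told apart, and set A, the one with Ct, holds no HF library.

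The genes described first were taken from the 12 with the smallest p among those of at least 1 CPM, at least 2-fold lower and without overlap. Susd1, which encodes a membrane protein with sushi domains (chr4:59314683-59438633, mm10), was at 25.8, 37, 30.4 and 27.5 CPM in the 4 ECH libraries and at 11.7, 16.5, 13.5 and 13.9 in HF. The groups did not overlap, and both ECH pairs lay above HF. Its log2 fold change was −1.12 ± 0.19 (FDR 0.338), it fell in the DESeq2 test (FDR 2.15e-05) and in the likelihood ratio test (FDR 0.00154), and it was −1.06 against ECH 3 and 4 and −1.17 against ECH 1 and 2. Cd38, the ectoenzyme that consumes NAD, was at 346, 263, 528 and 419.8 CPM in ECH and 128, 179.5, 119 and 190.1 in HF. Again no HF library reached an ECH library, and ECH 3 was the highest. The log2 fold change of Cd38 was −1.33 ± 0.26, it fell by DESeq2 (FDR 0.00029) and against ECH 3 and 4 (−1.62, FDR 0.00764), and it was −0.98 against ECH 1 and 2. Sla, the adaptor SLAP that dampens receptor signalling, measured 192, 202, 435 and 269 CPM in ECH and 89.8, 116, 139 and 127 in HF. It fell by DESeq2 (FDR 0.00156), with −1.58 against ECH 3 and 4 and −0.74 against ECH 1 and 2.

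The same groups of libraries separated for several more genes. Kcnk6, a background potassium channel, was at 74.1 to 124 CPM in ECH and 32.8 to 64.2 in HF, and it fell by DESeq2 (log2 fold change −1.10, FDR 0.00297). Mertk, the receptor tyrosine kinase with which Mφ bind dying cells, was at 183, 174, 496 and 414 CPM in ECH and 108, 125, 91.6 and 144 in HF. Every HF library lay below every ECH library, yet the distance was set largely by ECH 3 and 4. Mertk fell by DESeq2 (log2 fold change −1.43 ± 0.35, FDR 0.00962) and was −1.96 against ECH 3 and 4 and −0.60 against ECH 1 and 2. Its relative Axl was at 334 to 472 CPM in ECH and 247 to 353 in HF, with overlapping groups and a log2 fold change of −0.41 ± 0.18 (unadjusted p = 0.0377). Adam22, a catalytically inactive member of the ADAM family, was at 12 to 18.6 CPM in ECH and 4.01 to 8.92 in HF. Its log2 fold change of −1.31 did not pass in DESeq2 (FDR 0.0549). Gramd3, Arrdc2, Chka and Man2a1 also lay below every ECH library in HF, at log2 fold changes of −1.37, −1.27, −1.11 and −1.14, and all 4 fell by DESeq2 at FDRs of 0.00737, 0.0285, 0.0352 and 0.0352. Chka encodes choline kinase, the first enzyme of phosphatidylcholine synthesis, and Man2a1 a mannosidase of N-glycan trimming in the Golgi. Vcam1, an adhesion receptor that Mφ as well as endothelial cells can carry, was at 331, 91.6, 325 and 384 CPM in ECH and 98.4, 117, 43.8 and 71.3 in HF. ECH library 2 lay within the HF range, and Vcam1 fell by DESeq2 (log2 fold change −1.78 ± 0.45, FDR 0.00934).

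The genes that rose in HF were fewer, and a C-type lectin family led them. The Cd209 genes are mouse relatives of the human pathogen receptor DC-SIGN, and the 5 described here, of which Cd209a, Cd209b and Cd209g were chosen after their values were seen, lie together on chromosome 8, from 3743397 to 4137707 in mm10. Cd209f was at 3.01, 4.57, 2.38 and 5.69 CPM in ECH and 8.12, 17.6, 48.7 and 15.6 in HF. All 4 HF libraries lay above all ECH libraries, HF 3 highest, and the Ct libraries were at 14.6 to 38.6. Cd209f rose by DESeq2 (log2 fold change 2.52 ± 0.51, FDR 0.000234) and by the likelihood ratio test (FDR 0.00236), and it was 2.48 against ECH 3 and 4 and 2.57 against ECH 1 and 2. Cd209d was at 2.98, 1.02, 1.22 and 1.69 CPM in ECH and 5.95, 10.3, 16.5 and 7.72 in HF. It too rose by DESeq2 (log2 fold change 2.55 ± 0.60, FDR 0.00625), with 2.79 and 2.34 against the ECH pairs. Cd209a was at 64.3, 51.2, 54.3 and 26.1 CPM in ECH and 86.3, 75.5, 95.8 and 79.4 in HF, a log2 fold change of 0.78 ± 0.23 (DESeq2 FDR 0.109). Cd209g and Cd209b were at 0 CPM in HF 1 and at 5.84 to 17.2 and 6.5 to 12.1 CPM in the other 3 HF libraries, against 0.562 to 1.23 and 0 to 2.44 in ECH. HF 1 is the library with no count for 188 genes well detected in the other HF libraries, and the part of this in its zeros was not tested. Of the 7 family members tested, 4 were higher in HF at an unadjusted p under 0.05 (57.1% against 2.81% of all genes) and 0 were lower, with a family median of 2.52 and of 2.48 and 2.34 against the pairs. The study had reported lower Cd209 expression in ECH from these libraries, so the family was not chosen apart from the data. This share describes the family and is no separate support. The counts of such close paralogs are uncertain where reads match several copies, since the sources used here do not say how such reads were counted.

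Kcnq1, a voltage-gated potassium channel, was the third gene of at least 1 CPM that both tools called higher. It was at 2.28, 2.92, 2.24 and 2.02 CPM in ECH and 10.9, 4.45, 11.2 and 5.93 in HF, while Ct was at 1.64 to 3.96. HF was above ECH and Ct in all libraries. Kcnq1 rose by DESeq2 (log2 fold change 1.78 ± 0.43, FDR 0.0099) and by the likelihood ratio test (FDR 0.0496), with 1.93 and 1.65 against the ECH pairs. Further transcripts also separated the groups upwards. Abcg3, an ABC transporter, was at 8.97 to 28.7 CPM in ECH and 30 to 44.1 in HF, a log2 fold change of 1.02 ± 0.29. Smpd3, a neutral sphingomyelinase, was at 3.09 to 8.65 and 8.67 to 16.8 CPM (1.17 ± 0.35), and Gfra2, a co-receptor of the ligand neurturin, at 4.44 to 9.99 and 10.9 to 25.1 (1.05 ± 0.33). The DESeq2 FDRs of these 3 were 0.104, 0.127 and 0.17, so none of them passed in DESeq2. Abcg3 rose against ECH 3 and 4 (1.61, FDR 0.0134), with 0.60 against ECH 1 and 2. Smpd3 and Gfra2 did not pass against ECH 3 and 4 (FDR 0.0505 and 0.109). Qpct, which encodes glutaminyl cyclase, was at 8.88 to 25.5 CPM in ECH and 31.6 to 43.9 in HF (1.02 ± 0.34, DESeq2 FDR 0.199). Adamts14, a procollagen peptidase, was at 0, 0.543, 0.162 and 0 CPM in ECH and 10.9, 1.13, 1.17 and 2.13 in HF, with HF 1 far above the rest. Serf1, at 1.11 to 2.97 and 4.42 to 5.72 CPM, and Ispd, at 0.579 to 2.28 and 2.97 to 6.88, did not overlap either. Whether reads of Serf1 also match another place in the genome was not tested.

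**Figure D1:**
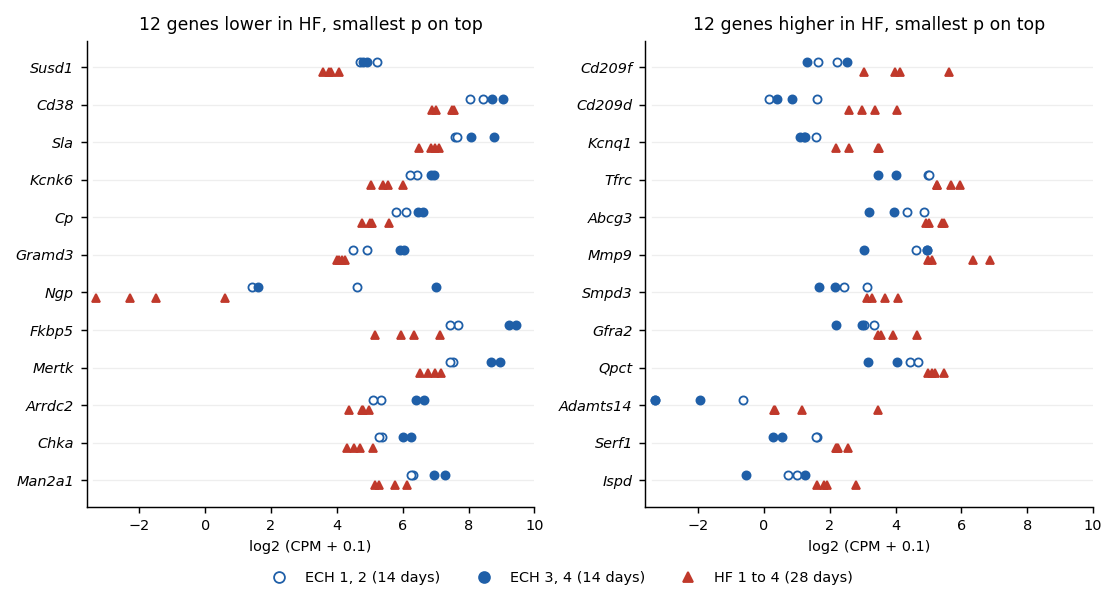
The 12 genes with the smallest p that were lower and the 12 that were higher in HF, at least 2-fold and without overlap. Points are libraries, the axis is log2(CPM + 0.1), open circles are ECH 1 and 2, filled circles ECH 3 and 4 and triangles HF. For Susd1 both ECH pairs sit at 25.8 to 37 CPM and HF at 11.7 to 16.5, while for Mertk ECH 3 and 4 (496 and 414 CPM) stand well above ECH 1 and 2 (183 and 174).

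Of the 31 Mφ gene lists, targets of the glucocorticoid receptor had the largest share of members lower in HF. Of 19 tested, 8 were lower in HF at an unadjusted p under 0.05 and 0 were higher, 42.1% against 5.17% of all genes, and the list median was −0.68 against −0.02. The 8 were Fkbp5, Tsc22d3, Zbtb16, Klf9, Ddit4, Per1, Hif3a and Pdk4. Fkbp5, a co-chaperone that limits the receptor's own hormone binding, was at 205, 175, 692 and 603 CPM in ECH and 139.6, 61.1, 35.4 and 81.3 in HF. No HF library reached the lowest ECH library, and ECH 3 and 4 were far above ECH 1 and 2. Fkbp5 fell by DESeq2 (log2 fold change −2.40 ± 0.58, FDR 0.0352), by the likelihood ratio test (FDR 0.0165) and against ECH 3 and 4 (−3.03, FDR 0.0118), and it was −1.26 against ECH 1 and 2. Tsc22d3, which encodes the leucine zipper protein GILZ, was at 1705, 739.8, 2559 and 2477 CPM in ECH and 993, 965, 630.5 and 654 in HF. Here ECH 2 lay inside the HF range. Tsc22d3 fell by DESeq2 (−1.21 ± 0.34, FDR 0.0391) but not by the likelihood ratio test (FDR 0.0734) and was −1.64 and −0.59 against the pairs. The transcription factor gene Zbtb16 was at 8.15, 7.7, 59.5 and 45.3 CPM in ECH and 7.67, 6.98, 3.94 and 5.99 in HF, so that ECH 1 and 2 were just above HF. It fell by DESeq2 (−2.30 ± 0.66, FDR 0.0335) but not by the likelihood ratio test (FDR 0.0685), with −3.09 against ECH 3 and 4 and −0.37 against ECH 1 and 2.

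The remaining members that were lower, named after their values were seen, had their highest values in ECH 3 and 4 as well. Klf9, a zinc finger factor, was at 105, 44.8, 173 and 191 CPM in ECH and 23.5 to 55 in HF, and Ddit4, the mTORC1 inhibitor REDD1, at 7.47, 1.79, 32.2 and 23.1 against 1.11 to 3.9. Ddit4 fell by DESeq2 (−2.99, FDR 0.0427) but not by the likelihood ratio test (FDR 0.101), and Klf9 did not pass (−1.78, FDR 0.194). Hif3a was at 6.67, 0.116, 18.2 and 20.7 CPM in ECH and 0, 1.25, 0.708 and 0 in HF. Pdk4, the kinase that shuts pyruvate dehydrogenase, was at 0.376, 1.26, 13 and 12.3 against 0.0191, 0.0369, 0 and 0.777. Against ECH 3 and 4, 6 of the 19 members fell (Fkbp5, Tsc22d3, Zbtb16, Per1, Klf9 and Ddit4), where 1.01% of all genes did, and 1 of 19 was lower at an unadjusted p under 0.05 against ECH 1 and 2. For that last count the share of all genes was 1.19%. The list medians were −1.11 and −0.37, and the median against all ECH was −0.49 to −1.12 with 1 library left out, the lowest without HF 4. The receptor gene itself, Nr3c1, was at 187 to 232 CPM in ECH and 189 to 234 in HF (log2 fold change 0.09). In Ct, Fkbp5 was at 50.5 to 195 CPM and Klf9 at 30.2 to 185, ranges that overlap both groups.

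Of 19 clock genes tested, 4 were lower in HF at an unadjusted p under 0.05 (21.1% against 5.17% of all genes), 0 were higher and 0 were called in the main test. The list median was −0.44, with −0.78 and −0.06 against ECH 3 and 4 and ECH 1 and 2, and against ECH 1 and 2, 0 members reached an unadjusted p under 0.05. The median against all ECH was −0.15 without ECH 4 and −0.69 without HF 1. Per1, a repressor of the clock and also a member of the glucocorticoid list, was at 34.5, 17, 53.5 and 64 CPM in ECH and 19.1, 25.6, 18.1 and 16.3 in HF. ECH 2 was within the HF range. The log2 fold change of Per1 was −1.10 ± 0.38, and it fell against ECH 3 and 4 (−1.57, FDR 0.0422) but was −0.38 against ECH 1 and 2. Ciart, a repressor that binds the CLOCK and BMAL1 complex, was at 16.9, 8.68, 17.9 and 25.4 CPM against 9.93, 8.03, 4.17 and 6.89. Tef, an activator of the PAR bZIP family, was at 24.7, 20.5, 57.1 and 74.6 against 16.4, 13.8, 25.4 and 31.2. It fell against ECH 3 and 4 (−1.60, FDR 0.0481), with −0.06 against ECH 1 and 2. Cry1, the partner of the Per proteins, was at 27.1, 8.22, 36 and 44 against 9.67, 7.46, 14.9 and 22.8. All 3 overlapped between groups through ECH 1 or 2, with log2 fold changes of −1.25, −1.03 and −1.07. The core activator gene Arntl, which encodes BMAL1, was at 41.4 to 52.8 CPM in ECH and 37.3 to 62.3 in HF (−0.03). The sources used here do not give the hour at which hearts were taken, and its part in these values was not tested.

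CLOCK and BMAL1 bind the E-box CACGTG, and each of the 4 clock genes that were lower holds it in at least 1 start-site window. Per1 and Tef have 2 windows each, and for both a window that holds the E-box is shown. The windows are RefSeq's, GRCm38.p6, from 250 bases before to 50 after a start, both strands were searched, and the capitals mark the E-box. CACGTG was in 7.15% of all 32851 windows of this length. Counted by gene, as some genes have more than 1 window, 8.09% of 27025 genes held it in at least 1 window, as did 5 of the 16 clock genes with a window (31.2%), the fifth being Bhlhe41, which was not lower (log2 fold change 0.25). The windows are Per1 at chr11:69098699-69098998 on the plus strand, Ciart at chr3:95882179-95882478 on the minus strand, Tef at chr15:81802423-81802722 on the plus strand and Cry1 at chr10:85185005-85185304 on the minus strand. The first E-box starts 166, 116, 127 and 60 bases before the start site of the window shown, and Ciart holds 3. The Per1 window belongs to a start inside the gene, whose listed position begins at 69095217. They are shown so that the motif can be read in each gene of the group.
Per1: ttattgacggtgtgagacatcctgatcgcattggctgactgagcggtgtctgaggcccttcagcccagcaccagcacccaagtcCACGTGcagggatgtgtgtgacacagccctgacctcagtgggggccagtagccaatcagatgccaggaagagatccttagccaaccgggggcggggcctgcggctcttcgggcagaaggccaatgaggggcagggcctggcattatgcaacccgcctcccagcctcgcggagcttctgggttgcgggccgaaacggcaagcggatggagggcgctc
Ciart: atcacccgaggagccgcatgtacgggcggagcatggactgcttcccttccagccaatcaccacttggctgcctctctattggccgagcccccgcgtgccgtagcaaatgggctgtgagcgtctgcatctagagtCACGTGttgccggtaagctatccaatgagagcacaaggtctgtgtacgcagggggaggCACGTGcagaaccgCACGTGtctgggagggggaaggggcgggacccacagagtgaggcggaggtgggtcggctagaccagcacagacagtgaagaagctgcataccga
Tef: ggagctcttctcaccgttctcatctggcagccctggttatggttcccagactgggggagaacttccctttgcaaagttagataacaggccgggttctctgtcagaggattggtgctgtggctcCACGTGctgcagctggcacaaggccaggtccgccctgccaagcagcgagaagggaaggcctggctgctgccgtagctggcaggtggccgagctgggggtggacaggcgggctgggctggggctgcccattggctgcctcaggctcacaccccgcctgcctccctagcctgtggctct
Cry1: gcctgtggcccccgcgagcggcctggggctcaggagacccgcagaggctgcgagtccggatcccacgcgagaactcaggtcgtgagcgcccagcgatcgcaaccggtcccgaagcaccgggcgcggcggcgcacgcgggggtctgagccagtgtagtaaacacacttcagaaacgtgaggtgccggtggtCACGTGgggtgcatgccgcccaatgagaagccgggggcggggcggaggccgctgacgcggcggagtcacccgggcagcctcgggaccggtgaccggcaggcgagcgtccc
For the glucocorticoid targets, a pair of core letters of the receptor's site, ACANNNTGT, was in 6.85% of all windows and in at least 1 window of 7.9% of all genes. It was in 4 of the 15 members with a window, Fam107a, Lcn2, Mt1 and Sgk1, and in none (0) of the 7 lower members that have one. A match in so short a window is a description of the sequence and no evidence of binding.

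**Figure D2:**
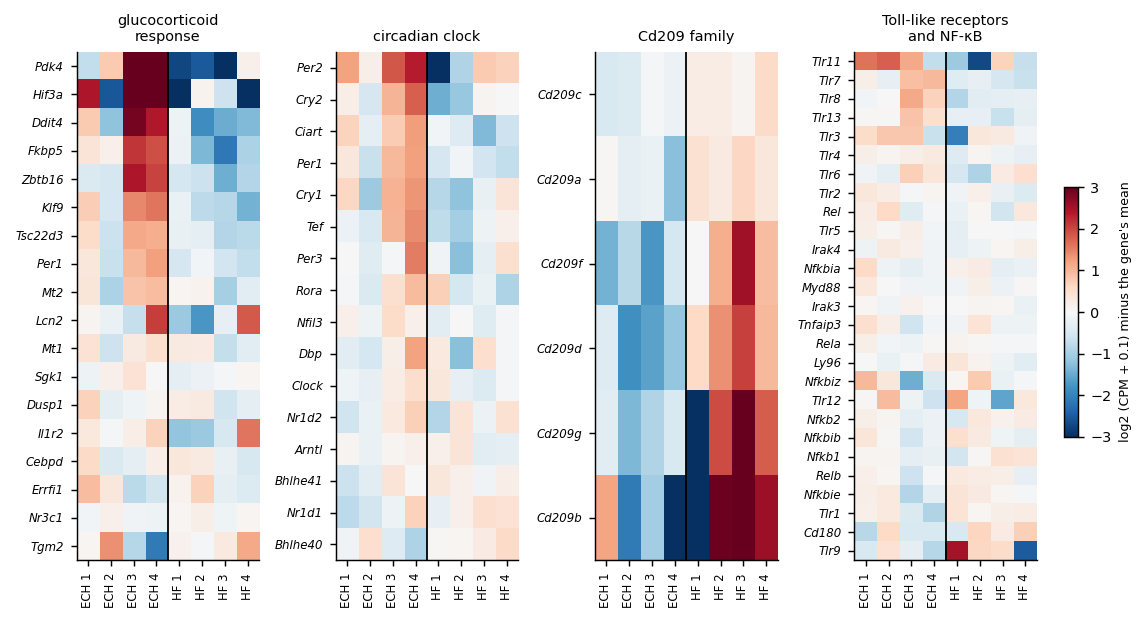
Glucocorticoid targets, clock genes, Cd209 genes and Toll-like receptor genes of at least 1 CPM in the 8 libraries. Colour is log2(CPM + 0.1) minus the mean of the gene over the 8 libraries, with the colour scale held at ±3. Fkbp5, Zbtb16 and Klf9 are highest in ECH 3 and 4, while Cd209f and Cd209d are low in all 4 ECH libraries and high in HF.

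The median of the 27 Toll-like receptor and NF-κB genes tested was −0.03, with 0.05 without ECH 1 and −0.09 without ECH 4. Of the 27, 3 were lower in HF at an unadjusted p under 0.05 (11.1% against 5.17% of all genes) and 0 were higher. The 3 were Tlr7, Tlr8 and Tlr13. Tlr7, which senses single-stranded RNA, was at 257, 192, 428 and 445 CPM in ECH and 177, 191, 160.2 and 143 in HF. The groups met without overlap, ECH 2 at 192 and HF 2 at 191. Tlr7 had a log2 fold change of −0.98 ± 0.24 and fell against ECH 3 and 4 (−1.38, FDR 0.00211), with −0.42 against ECH 1 and 2. Tlr8 was at 162, 170.1, 377 and 278 against 93.9, 136, 141 and 145 (−0.94 ± 0.26), and Tlr13, the sensor of bacterial ribosomal RNA, at 231, 232, 413 and 317 against 192, 192, 144 and 188 (−0.73 ± 0.19). Both lay below every ECH library and fell against ECH 3 and 4, by 1.34 and 1.03 on the log2 scale at FDRs of 0.00631 and 0.0061. Tlr3, which senses double-stranded RNA, was at 9.15 to 25.6 CPM in ECH and 3.44 to 18.5 in HF, with overlapping groups (−0.63, unadjusted p = 0.168). Tlr7, Tlr8 and Tlr13 lie on the X chromosome, Tlr7 and Tlr8 side by side.

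Genes that handle iron and haem differed in both directions. Cp, ceruloplasmin, which oxidises iron for export, was at 68, 55.5, 88.6 and 98.8 CPM in ECH and 47.7, 31.9, 33.4 and 27.1 in HF. No HF library reached ECH, and Cp fell by DESeq2 (log2 fold change −1.15 ± 0.25, FDR 0.00625) and against ECH 3 and 4 (−1.42, FDR 0.0128), with −0.82 against ECH 1 and 2. Cd163, the receptor for haemoglobin and haptoglobin complexes, was at 1942, 1083, 2151 and 2349.8 CPM in ECH and 964, 1169.6, 680.2 and 943 in HF. HF 2 was above ECH 2, and Cd163 fell against ECH 3 and 4 (−1.26, FDR 0.0201), with −0.69 against ECH 1 and 2. Tfrc, the transferrin receptor that brings iron in, was higher, at 31.2, 32, 10.9 and 15.9 CPM in ECH and 62.3, 50.8, 37.8 and 38.1 in HF without overlap. It rose against ECH 3 and 4 (1.82, FDR 0.00301), with 0.58 against ECH 1 and 2 and a log2 fold change of 1.07 ± 0.30 against all ECH (DESeq2 FDR 0.071). Of 19 iron and NRF2 genes tested, 3 were lower at an unadjusted p under 0.05 (15.8% against 5.17% of all genes), the third being the iron transporter gene Slc11a1, and 1, Tfrc, was higher (5.26% against 2.81%).

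Most markers of resident Mφ had a positive log2 fold change, but not all went the same way. Of 17 tested, 5 were higher in HF at an unadjusted p under 0.05 (29.4% against 2.81% of all genes) and 1, Cd163, was lower (5.88% against 5.17%), and the list median was 0.33. The 5 higher genes were Cd209f, Cd209g, Mgl2, Timd4 and Igf1, and Cd209f and Cd209g are also counted in the Cd209 family above. Of the 17, 12 were positive, with medians of 0.41 against ECH 3 and 4 and 0.13 against ECH 1 and 2. With 1 ECH or HF library left out the median was 0.22 to 0.42. Against ECH 3 and 4, 8 were higher at an unadjusted p under 0.05 (47.1% against 8.51% of all genes) and 1 lower (5.88% against 7.73%). Mgl2, the lectin CD301b, was at 670.5, 982, 307 and 303 CPM in ECH and 1201, 976, 1443 and 1412 in HF, and HF 2 met ECH 2. It rose against ECH 3 and 4 (2.04, FDR 0.00636) and was 0.61 against ECH 1 and 2. Timd4, a receptor for phosphatidylserine on dying cells, was at 70.9, 77.3, 33.6 and 34.2 CPM against 65.5, 94, 88.2 and 100.5, and rose against ECH 3 and 4 (1.36, FDR 0.0177) with 0.23 against ECH 1 and 2. Lyve1 was at 889 to 1547 CPM in ECH and 678 to 1117 in HF (−0.23). In bulk RNA of a sorted gate, fewer cells of a type and less RNA per cell cannot be told apart. Of 18 recruited monocyte genes, 2 were lower at an unadjusted p under 0.05 (11.1% against 5.17% of all genes, a difference of about 1 gene) and 0 higher. Thbs1, thrombospondin 1, was at 232, 329, 343 and 216 CPM in ECH and 86.8, 144, 126 and 259.9 in HF, and Ly6c2 at 15.5 to 23.5 against 5.09 to 17.2, both overlapping. Ccr2 was at 296 to 563 and 466 to 773 CPM (0.49 ± 0.28, unadjusted p = 0.103).

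Of 12 genes of class II antigen presentation tested, 3 were higher in HF at an unadjusted p under 0.05 (25% against 2.81% of all genes) and 0 lower. For 0 of them did every HF library lie above every ECH library, and their summed level overlapped, at 17155 to 27120 CPM in ECH and 20585 to 31200.1 in HF. Of the 12, 11 had a positive log2 fold change, and the median was 0.40, with 0.64 and 0.17 against ECH 3 and 4 and ECH 1 and 2. H2-DMb1 and H2-DMa, which load peptides, were at 183 to 343 and 182 to 374 CPM in ECH and 284 to 434 and 285 to 431 in HF, with log2 fold changes of 0.46 each. Cd74, the invariant chain, was at 9507, 12678, 8960.5 and 8675 CPM against 14234, 10139.5, 14898 and 11957 (0.36 ± 0.16). Of the 12, 0 were called in the main test or against ECH 3 and 4. Against that pair, 2 passed the FDR limit by less than 2-fold, H2-DMa (0.88, FDR 0.0232) and H2-DMb1 (0.81, FDR 0.0389). At an unadjusted p under 0.05, 6 of the 12 were higher against ECH 3 and 4 (50% against 8.51% of all genes) and 0 against ECH 1 and 2. H2-Ab1, a chain of the class II molecule itself, was at 2839, 4914, 2621 and 2175 CPM against 4581, 3152, 5482 and 4188 (0.47 ± 0.24), with ECH 2 above 3 of the HF libraries.

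Chemokine genes differed between the ECH pairs more than between HF and all ECH. The list of 25 had a median of 0.38 against all ECH, of 1.43 against ECH 3 and 4 and of −0.15 against ECH 1 and 2, and 5 members (Ccl4, Ccl12, Cxcl1, Pf4 and Ppbp) rose against ECH 3 and 4, where 0.849% of all genes did. The median against all ECH was 0.59 without ECH 1, 0.17 without ECH 3 and 0.12 without ECH 4. Ppbp, the platelet basic protein, was at 45.2, 67.5, 7.78 and 5.93 CPM in ECH and 92, 87, 67.1 and 45.2 in HF. Ccl12, a ligand of Ccr2, was at 809, 443, 105 and 90.6 against 628, 625, 551 and 453. In both, HF was level with ECH 1 and 2 and several-fold above ECH 3 and 4. Pf4, platelet factor 4, was at 2441, 2250.1, 845 and 997 against 3423, 3362, 2711 and 2250.2 (0.85 ± 0.33), and Ccl8 at 129, 137, 95.4 and 101 against 119, 139, 349.7 and 173 (0.76 ± 0.30). Ccl11 was at or near 0, with at most 0.178 CPM in ECH and 0.0179 in HF. Heat shock genes showed a like pattern, with a median of 0.24 against all ECH, 1.11 against ECH 3 and 4 and −0.28 against ECH 1 and 2, and the first was 0.45 without ECH 1, 0.03 without ECH 3 or HF 1 and 0.02 without ECH 4. Of the 15, 11 were higher against ECH 3 and 4 at an unadjusted p under 0.05 (73.3% against 8.51% of all genes) and 0 against all ECH or ECH 1 and 2. Hsp90ab1 and Hspa5, cytosolic and endoplasmic reticulum chaperones, rose against ECH 3 and 4 (1.18 and 1.15, FDR 0.0188 and 0.00649). The part of heat shock or of handling in the results was not tested.

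The CX3CL1 and CX3CR1 genes, a chemokine and its receptor that the study followed, were not called against all ECH by the main method. Cx3cl1 was at 9.55, 11.3, 16.8 and 34.4 CPM in ECH and 6.45, 3.57, 5.34 and 7.88 in HF, below every ECH library. Its log2 fold change was −1.63 ± 0.83 (unadjusted p = 0.0695, DESeq2 FDR 0.465), with −2.14 and −0.84 against the ECH pairs (FDR 0.281 against ECH 3 and 4), and Ct was at 0 to 1.93. In a fit of the 6 libraries of HF and ECH 3 and 4 alone, Cx3cl1 fell (−2.14, FDR 0.0215). Cx3cr1 was at 126, 221, 50.2 and 23.9 CPM in ECH and 141, 156, 177 and 143 in HF, so that HF lay between ECH 2 and ECH 1. It rose against ECH 3 and 4 (2.06, FDR 0.00547), was −0.17 against ECH 1 and 2 and differed between the ECH pairs (FDR 0.0161). Tnf was at 258, 187, 50.5 and 102 against 159, 242, 112 and 129.7 (0.10 ± 0.40). Il4ra, the receptor chain for interleukin 4, was at 325 to 479.7 against 206 to 338 (−0.56 ± 0.22). Groups overlapped for Tnf and Il4ra.

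Of 20 proteases, sheddases and inhibitors tested, 2 were higher in HF at an unadjusted p under 0.05 (10% against 2.81% of all genes), Mmp9 and Mmp12, and 3 were lower (15% against 5.17%), the sheddases Adam8, Adam9 and Adam10. The list median was 0.04, with 0.08 without HF 1 and −0.04 without HF 2, and 0 were called in the main test. Adam8 was at 266, 206, 414 and 229 CPM in ECH and 109.9, 170.4, 167 and 192 in HF without overlap, and it fell against ECH 3 and 4 (−1.01, FDR 0.0459), with −0.56 against ECH 1 and 2 and −0.80 ± 0.22 against all ECH. Adam9 and Adam10, at −0.55 each, overlapped between groups through ECH 1 or 2, with 299 to 514 and 159.9 to 303 CPM in ECH against 239.8 to 312 and 117 to 177 in HF. Mmp9, gelatinase B, was at 24.3, 31.2, 8.16 and 30.7 CPM against 34.6, 31.3, 80.6 and 117, with HF 3 and 4 well above the others (1.48 ± 0.44, DESeq2 FDR 0.0634). Mmp12, the macrophage elastase, was at 228, 440.1, 143 and 97.3 against 251, 410.2, 534 and 505, and rose against ECH 3 and 4 (1.82, FDR 0.0229) with 0.35 against ECH 1 and 2. Mmp13 was at 89.9, 85.2, 7.83 and 10.8 against 75.6, 83.3, 62.8 and 79.1, level with ECH 1 and 2, and rose against ECH 3 and 4 (3.01, FDR 0.000299). Among growth factors, Tgfb1 was at 51.8 to 66.1 CPM in ECH and 72.1 to 85.2 in HF (0.34 ± 0.13), Igf1 at 182 to 346 and 272 to 390.5 (0.46 ± 0.21) and Pdgfc at 50.5 to 82.7 and 42.4 to 50.3 (−0.46 ± 0.19). The groups did not overlap for Tgfb1 and Pdgfc, and none of the 3 passed in DESeq2.

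Single genes of glucose and fat use were lower in HF, while glycolysis as a list was not. Of 19 glycolysis and glucose uptake genes tested, 1, Pfkfb3, was lower at an unadjusted p under 0.05 (5.26% against 5.17% of all genes) and 0 were higher. In this list 16 had a positive log2 fold change, with a median of 0.15 (0.37 and 0.05 against ECH 3 and 4 and ECH 1 and 2). With 1 library left out this median for glycolysis and glucose uptake was 0.03 without ECH 4, 0.23 without ECH 2 and 0.24 without ECH 1 or HF 1. Pfkfb3, the enzyme whose product drives glycolysis, was at 61.1, 47.1, 222 and 248 CPM in ECH and 29.5, 36.9, 42.1 and 51 in HF. HF overlapped ECH 2 and lay well below ECH 3 and 4. It fell by DESeq2 (log2 fold change −1.86 ± 0.45, FDR 0.00541) and against ECH 3 and 4 (−2.56, FDR 0.000117), with −0.44 against ECH 1 and 2, and the ECH pairs differed from each other (FDR 0.00452). Sik1, a kinase gene induced by cAMP, was at 33.3, 23.2, 66.7 and 69 against 17.9, 17.6, 14.3 and 23.8, and fell by DESeq2 (−1.39 ± 0.32, FDR 0.00934). Of the 29 genes of β-adrenergic and cAMP signalling Sik1 was the 1 lower at an unadjusted p under 0.05 (3.45% against 5.17% of all genes), and Prkar2b (0.71) and Gnas (0.31) were the 2 higher (6.9% against 2.81%). Pnpla2, the triglyceride lipase ATGL, was at 139, 100.04, 431 and 482 against 101, 105, 79.4 and 78.8, and fell by DESeq2 (−1.66 ± 0.40, FDR 0.00625), with −2.33 and −0.39 against the pairs. In the lipid list Fabp4 and Ctsl, at log2 fold changes of −0.98 and −0.56, were lower at an unadjusted p under 0.05, as was Plin2 (−0.83), 3 of 15 (20% against 5.17% of all genes). In the hypoxia list Bnip3, Mxi1 and Kdm3a were lower at that limit (−0.69, −0.43 and −0.64), again 3 of 15 (20%). Against ECH 1 and 2, 0 members of either list were lower at that limit. Fabp4 fell against ECH 3 and 4 (−1.54, FDR 0.0114), with −0.08 against ECH 1 and 2, and its groups overlapped. Bnip3 fell against ECH 3 and 4 as well (−1.05, FDR 0.0201), with −0.21 against ECH 1 and 2. Ctsl was −0.82 and −0.26 and Mxi1 −0.68 and −0.14 against the pairs.

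Nuclear genes of mitochondrial respiration had small positive differences in most members, and 0 were called. Of 76 tested, 29 lay above every ECH library in all HF libraries, 38.2% against 3.36% of all genes, and 0 lay below. The median log2 fold change was 0.28, 69 were positive, and the medians against ECH 3 and 4 and ECH 1 and 2 were 0.35 and 0.18. At the level of single genes 8 reached an unadjusted p under 0.05 (10.5% against 2.81% of all genes) and 0 were called in the main test or against ECH 3 and 4. Ndufa9, a subunit of complex I, was at 87.6, 88.7, 75.7 and 68.6 CPM in ECH and 122, 103, 112 and 103 in HF (0.46 ± 0.14). Atp5o, of the ATP synthase, was at 97.5, 93.2, 78.7 and 76.5 against 123, 103, 129.7 and 108 (0.42 ± 0.15), and Cox6a1, of cytochrome oxidase, at 238, 214, 175 and 173 against 312, 264, 261 and 266 (0.46 ± 0.17). In all 3 the lowest HF library was above the highest ECH library. Relative to the ECH mean, the median over the 76 genes (0.5 CPM added) was 0.38, 0.15, 0.28 and 0.23 in HF 1 to 4 and 0.10, 0.09, −0.11 and −0.09 in ECH 1 to 4. HF 1, the library with the fewest genes detected, was the highest, and HF 2 was close to ECH 1. The genes of 1 pathway share libraries and are not replicates. Cytosolic ribosomal proteins, another large group of abundant transcripts, had a median of 0.05 over 79 genes, and 0 reached an unadjusted p under 0.05.

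The core site of NRF1, a factor known to act on respiratory genes, is CGCATGCG. It was in 1.87% of all 32851 windows. Counted by gene it was in at least 1 window of 2.07% of 27025 genes and of 9 of the 61 respiratory genes with a window (14.8%). Of the 8 members at an unadjusted p under 0.05, Cox6a1 held it. Its window (chr5:115348909-115349208, minus strand, RefSeq, GRCm38.p6) and that of Atp5j (chr16:84834927-84835226, minus strand), another of the 9, are shown with the site in capitals, 161 and 147 bases before the start site. Atp5j has 2 windows, and a window with the site is shown. Its transcript was at 147 to 173 CPM in ECH and 184 to 204 in HF (0.28 ± 0.14).
Cox6a1: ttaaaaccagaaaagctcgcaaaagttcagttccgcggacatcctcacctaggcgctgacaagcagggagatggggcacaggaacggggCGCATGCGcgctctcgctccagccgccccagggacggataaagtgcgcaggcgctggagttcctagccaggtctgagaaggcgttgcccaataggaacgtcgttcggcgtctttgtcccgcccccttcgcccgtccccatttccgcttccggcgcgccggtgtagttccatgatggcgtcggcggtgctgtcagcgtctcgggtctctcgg
Atp5j: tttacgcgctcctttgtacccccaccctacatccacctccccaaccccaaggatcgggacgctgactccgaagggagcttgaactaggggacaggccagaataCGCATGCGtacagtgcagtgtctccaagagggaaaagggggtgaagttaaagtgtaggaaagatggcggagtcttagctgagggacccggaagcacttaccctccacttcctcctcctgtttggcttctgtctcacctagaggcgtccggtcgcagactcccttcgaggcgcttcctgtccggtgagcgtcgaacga

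**Figure D3:**
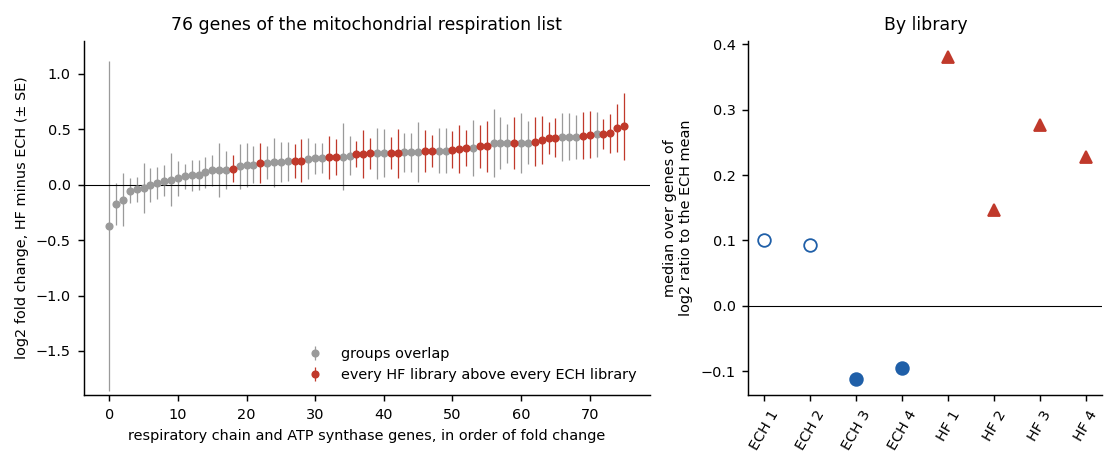
Log2 fold change (HF minus ECH) with its SE for the 76 nuclear genes of respiration, and their median log2 ratio to the ECH mean in each of the 8 libraries. Of the 76 genes 69 are above 0, and the HF medians lie between 0.15 and 0.38 and the ECH medians between −0.11 and 0.10.

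The genes that separated the ECH pairs show how far a result depends on which ECH libraries HF is set against. Pik3ip1, an inhibitor of PI3 kinase, was at 10.6, 6.8, 113 and 154 CPM in ECH and 2.75, 6.16, 4.39 and 6.88 in HF, and it fell against ECH 3 and 4 (−4.73, FDR 0.00163) with −0.78 against ECH 1 and 2. Ch25h, which hydroxylates cholesterol to an oxysterol, was at 114, 101, 22.9 and 24.8 against 108, 98, 100.2 and 114, and rose against ECH 3 and 4 (2.14, FDR 0.000117) with −0.03 against ECH 1 and 2. HF lay at the level of ECH 1 and 2 for this gene. Igfbp4, a binding protein of insulin-like growth factors, was at 379, 405, 96.7 and 119 against 480.0, 505, 562 and 414. It rose against ECH 3 and 4 (2.19, FDR 0.000117), with 0.32 against ECH 1 and 2. Cd72, an inhibitory lectin receptor, was at 158, 239, 57.1 and 49.8 against 201, 177, 237 and 267. It rose against ECH 3 and 4 (2.04, FDR 0.00166), with 0.15 against ECH 1 and 2. Slc43a2, an amino acid transporter, was at 218, 259, 471 and 505 against 198, 185, 193 and 181, below every ECH library, and fell against ECH 3 and 4 (−1.37, FDR 0.000561) with −0.33 against ECH 1 and 2. In contrast, Susd1, Cd209f, Cd209d and Kcnq1 had fitted differences of at least 2-fold from each pair, and the FDR between their ECH pairs was 0.998 for each. Of these Susd1 fell against ECH 3 and 4 (FDR 0.0252), Cd209f, Cd209d and Kcnq1 did not pass there (FDR 0.0792, 0.099 and 0.1), and none (0) of the 4 passed against ECH 1 and 2 (FDR 1). The rule that chose these 4 genes asked for no overlap with any ECH library, which favours genes whose ECH pairs are close. A high FDR between the pairs does not show that they agree.

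**Figure D4:**
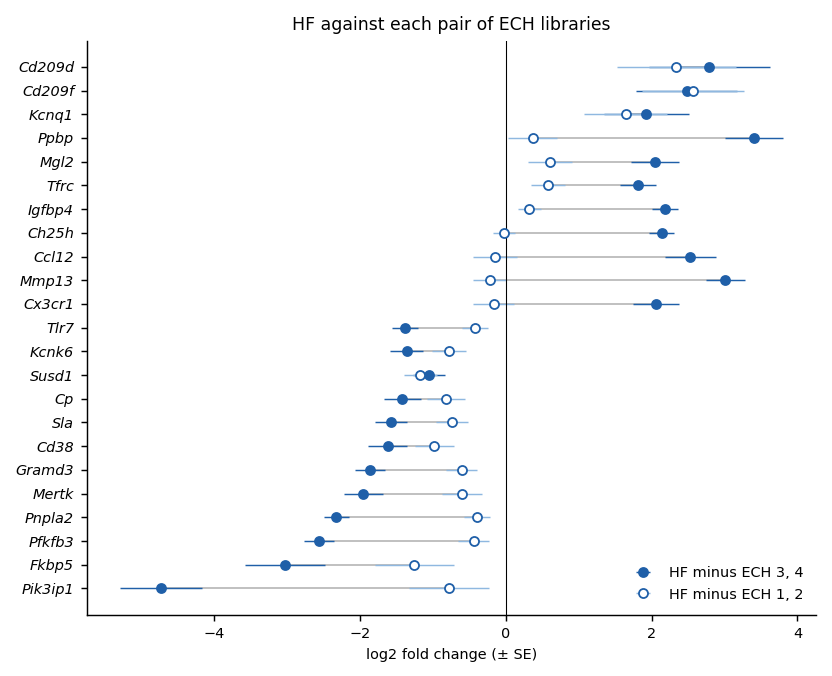
Log2 fold change of HF against ECH 3 and 4 and against ECH 1 and 2, with SE, for 23 named genes. Susd1, Cd209f, Cd209d and Kcnq1 have values on the same side and of similar size, while Ch25h is at 2.14 against ECH 3 and 4 and −0.03 against ECH 1 and 2.

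Many gene lists had no member that passed even an unadjusted limit against all ECH. In 8 of the 31 Mφ lists, with 206 tested members between them, 0 members reached an unadjusted p under 0.05. Among these were the type I interferon response (25 genes, median 0.08), the IFNγ response (20, 0.05), cytokines (22, 0.10), MHC class I (12, −0.09), immediate early genes (23, −0.04) and, despite the shift against ECH 3 and 4 given above, heat shock. With 1 library left out the medians of both interferon lists and of the immediate early genes took both signs. For the IFNγ response the medians were 0.44 against ECH 3 and 4 and −0.20 against ECH 1 and 2, and for cytokines 0.25 and −0.26. Against ECH 3 and 4, 6 of the 22 cytokines were higher and 1 lower at an unadjusted p under 0.05, where 8.51% and 7.73% of all genes were. In cell division 3 of 32 were higher (9.38% against 2.81% of all genes) and 0 lower. They were Mcm5 and Mcm3, subunits of the replication helicase, and Ccnd1, cyclin D1. Mcm5 was at 17.9, 37, 17.4 and 11.1 CPM in ECH and 34.9, 34.6, 44.7 and 73 in HF (1.17 ± 0.38), and Ccnd1 at 14.7, 25, 6.95 and 4.26 against 29.9, 19, 34.2 and 31 (1.16 ± 0.44). Both overlapped through ECH 2. Ccnd1 rose against ECH 3 and 4 (2.35, FDR 0.00656), with 0.52 against ECH 1 and 2, and Mcm5 was 1.72 and 0.77 against the pairs. Against ECH 1 and 2, 0 of the 32 were higher at an unadjusted p under 0.05. The list median was −0.04, with −0.30 against ECH 3 and 4 and 0.36 against ECH 1 and 2. It was −0.15 without ECH 1 and 0.17 without HF 1. In complement 1 of 20 was higher (5%), Cfp, properdin, at 655, 688, 463 and 475 against 748, 756, 1022 and 925 (0.60 ± 0.16), and 1 each was higher in sterol synthesis (Fdps, 0.70, 5.26%) and in the unfolded protein response (Sdf2l1, 0.83, 5%), against 2.81% of all genes. Against ECH 3 and 4, 8 of 19 sterol genes (42.1%) and 7 of 20 of the unfolded protein response (35%) were higher, against 8.51% of all genes. Of these 1 and 3 were called, where 0.849% of all genes were. Sdf2l1 rose (1.61, FDR 0.00621). Against ECH 1 and 2, 0 members of either list were higher at an unadjusted p under 0.05. In efferocytosis 2 of 24 were higher (8.33% against 2.81%), Anxa1 (0.51) and Timd4, and 2 lower (8.33% against 5.17%), Mertk and Axl.

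**Figure D5:**
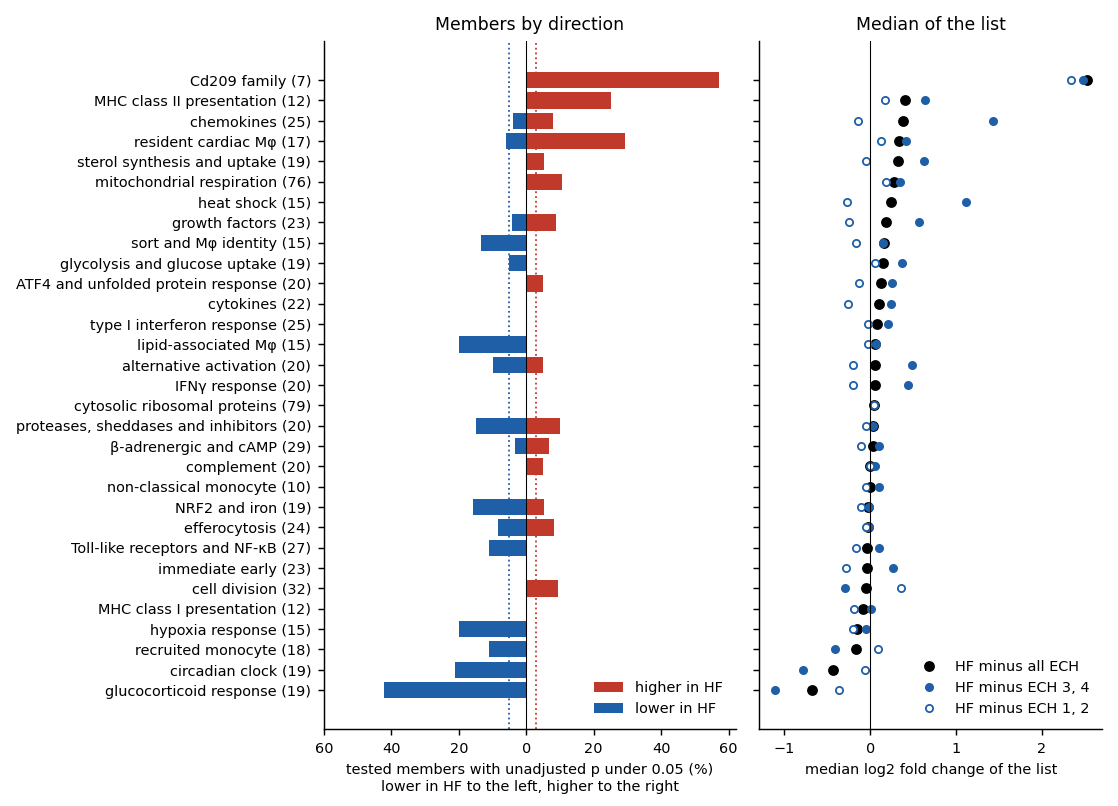
Share of members of 31 gene lists that were higher or lower in HF at an unadjusted p under 0.05, with dotted lines at the shares over all genes (2.81% and 5.17%), and each list's median log2 fold change against all ECH, ECH 3 and 4 and ECH 1 and 2. The glucocorticoid list has the lowest median of the 31 (−0.68) and the Cd209 family the highest (2.52). For chemokines, heat shock and several other lists, growth factors and the IFNγ response among them, the medians against the ECH pairs lie on opposite sides of 0.

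Genes of other cell types were read as levels, since the gate can admit other cells. Of 77 tested markers in 10 lists, 2 were lower (2.6% against 5.17% of all genes) and 1 higher (1.3% against 2.81%) in HF at an unadjusted p under 0.05. The 2 were neutrophil granule genes. Ltf, lactoferrin, was at 10.5, 0.0194, 0.556 and 41.9 CPM in ECH and 0, 0.314, 0 and 0.0626 in HF, and Camp, cathelicidin, at 2.3, 0.0194, 0 and 12.2 in ECH and at 0 counts in all 4 HF libraries. Ngp, a granule protein of the same precursors and no member of the list, was at 24.1, 2.58, 2.96 and 128 against 0.105, 0, 0.251 and 1.4. ECH 1 and 4 held most of these transcripts, and DESeq2 and the likelihood ratio test called Ltf, Camp and Ngp lower. The neutrophil genes S100a8 and S100a9 were at 19.7 to 138 and 30.8 to 172 CPM in ECH and 15.1 to 370.2 and 29.1 to 602 in HF, with HF 4 the highest. Summed over the 11 neutrophil markers, ECH was at 192 to 569.5 CPM and HF at 131 to 1266, Mpo at 0 in all 8 libraries. Cardiomyocyte markers summed to 106 to 203 CPM in ECH and 83.5 to 142 in HF, fibroblast markers to 91.3 to 478 and 82.7 to 255, endothelial markers to 19.9 to 43.9 and 15.6 to 34.3, and the ranges overlapped for each. Against ECH 3 and 4 alone, whose cardiomyocyte sums of 183 and 203 CPM lay above every HF library, 6 of the 12 cardiomyocyte markers were lower at an unadjusted p under 0.05 (50% against 7.73% of all genes), with a median of −0.59, and against ECH 1 and 2 the median was 0.16. At the same limit against ECH 3 and 4, 3 of 11 T and NK cell markers were higher (27.3%, median 0.90). So were 3 of 9 dendritic cell markers (33.3%) and 1 of 5 mast cell markers (20%), against 8.51% of all genes. Lower were 2 dendritic cell markers (22.2%) and 3 of 9 neutrophil markers (33.3%), against 7.73%. The dendritic cell marker Siglech was at 4.78 to 10 CPM in ECH and 7.51 to 17.8 in HF (0.94 ± 0.40). The part of these cells in the results was not tested.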

How the data were processed

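RNA of sorted cardiac Mφ was sequenced in 12 libraries, 4 per group, and the study gives 4 mice per group, so each library was taken as 1 mouse. Groups came from the treatment labels. According to the methods and the submitters' processing notes, the authors prepared libraries by SMART-Seq v4, read paired ends on a NextSeq 500, and used FastQC, Trimmomatic, TopHat2 (build mm10), featureCounts and edgeR. Versions, annotation, strand setting and the handling of reads that match several genes were not given in the sources used here. Each deposited file holds unnormalized read counts per gene from the authors, for 24445 gene symbols, with no molecular identifiers, so depth limits cover counting error only.

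Counts were analysed with edgeR 4.0.16 in R 4.3.3: filterByExpr by group left 14608 genes, and TMM scaling and a quasi-likelihood fit with a mean per group used all 12 libraries. P-values were adjusted by the Benjamini-Hochberg method over every tested gene, and calls required 2-fold or more with an FDR under 0.05. The filter, totals and scaling use the genes of the table, and CPM were taken over the genes that passed the filter. A second fit had separate means for ECH libraries 1 and 2 and ECH libraries 3 and 4. The alternatives were RLE scaling, DESeq2 1.42.0 (FDR not given for 344 genes), edgeR's likelihood ratio test, limma-voom (limma 3.58.1), other filters, other sets of libraries, a replicate block and each library left out. The steps were tested on simulated data. Single values of 4 against 4 libraries were compared by two-sided exact permutation.

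The groups compared, gene lists and naming rule were chosen with earlier results of these data known. Named genes are the 12 per direction with the smallest p among those of at least 1 CPM on average, 2-fold and without overlap, up to 2 members per list and direction at an unadjusted p under 0.05, genes the study's text names, and markers of the sort. Genes outside this rule were chosen after their values were seen. They are Zbtb16, Klf9, Ddit4, Hif3a, Pdk4, Tef, Cry1, Tlr8, Cd209a, Cd209b, Cd209g, H2-DMa, H2-Ab1, Cox6a1, Atp5j, Pnpla2, Pik3ip1, Ch25h, Igfbp4, Mmp13, Ppbp, Ccl12, Slc43a2, Cd72, Adam22, Vcam1, S100a8, S100a9, Lyve1, Nr3c1, Arntl, Tlr3, Mcm3, Slc11a1, Ccl4, Cxcl1, Hsp90ab1, Hspa5, Plin2, Kdm3a, Bhlhe41, Fam107a, Lcn2, Mt1, Sgk1 and Mpo. Gene positions came from GENCODE M21 (GRCm38, the same sequence as mm10) by symbol, and sequences from RefSeq windows on GRCm38.p6. Figures were drawn with matplotlib 3.10.9 in Python 3.11.15. Immunoglobulin genes Ighm and Igkc were not analysed here, and 1 gene that the naming rule includes is not reported here.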

Additional observations from a re-analysis of the deposited data

Results flagged for a closer look

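Of 214 groups of 4 values examined, 9 held 1 library whose gap to the nearest of the others was above Dixon's 95% critical value of 0.829 of the range, and chance flags about 1 in 20 groups. In HF these were library 1 for genes detected (13600), for Adamts14 (10.9 CPM) and for Cox6a1 (312 CPM), library 2 for Ctsl (548 CPM), library 3 for Tlr13 (144 CPM, the lowest), and library 4 for Pdk4 (0.777 CPM) and Ccl11 (0.0179 CPM, the other 3 at 0). In ECH they were library 1 for Cd14 (2993 CPM) and library 2 for Siglech (10.01 CPM).

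For 11 named genes the difference of HF from ECH depended on the ECH pair, tested as ECH 3 and 4 against ECH 1 and 2 in the quasi-likelihood fit with adjustment over all genes. Higher in ECH 3 and 4, so that HF lay farther below that pair, were Pik3ip1 by 3.94 on the log2 scale (FDR 0.0375), Pfkfb3 by 2.12 (FDR 0.00452), Pnpla2 by 1.93 (FDR 0.00301) and Slc43a2 by 1.03 (FDR 0.0181). Lower in ECH 3 and 4, with HF above that pair, were Mmp13 at −3.23 (FDR 0.000732), Ppbp at −3.04 and Ccl12 at −2.68 (FDR 0.00992 each), Cx3cr1 at −2.23 (FDR 0.0161), Ch25h at −2.17 (FDR 0.000732), Cd72 at −1.89 (FDR 0.0101) and Igfbp4 at −1.87 (FDR 0.00187). These genes, except Pfkfb3 and Cx3cr1, were chosen after their values were seen, and mouse pair and library set cannot be told apart.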

How the results depend on the processing

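Counts of called genes were 0 with edgeR's quasi-likelihood test as reported, with limma-voom, and with RLE scaling, both other filters, the 8 ECH and HF libraries alone, a replicate block or with any 1 of the 12 libraries left out (0 to 0). DESeq2 called 47, the likelihood ratio test 48, the library set as a covariate 272, which is the same comparison as HF against ECH 3 and 4, and set B alone 370. At an unadjusted p under 0.05 the 410 higher genes became 847 with limma-voom, 733 with ECH and HF alone, 1243 with the set as a covariate, 1740 in set B and 66 against ECH 1 and 2, and the 755 lower genes became 1410 in set B and 174 against ECH 1 and 2, an alternative chosen after seeing the data. Leaving out 1 library gave 156 to 687 higher genes (156 without ECH 3, 170 without ECH 4, 271 without HF 1, 637 without ECH 2 and 687 without Ct 2) and 425 to 1096 lower genes (425 without ECH 3, 467 without ECH 4). The 58 genes between the ECH pairs were 259 by DESeq2 and 215 by the likelihood ratio test. The cause of these shifts was not tested.

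The replicate numbers did not pair the samples, with correlations of the deviations of same-numbered libraries of 0.0456, −0.0168, −0.0289 and 0.0213. With the replicate block, 391 genes were higher and 684 lower at an unadjusted p under 0.05, and 5 genes differed between the ECH pairs. The difference in genes detected per library ranged from −1186.5 to −649.5 with 1 library left out, and without ECH 1, 3 or 4 the exact p was 0.0571, against 0.0286 in the other 5 cases. Of the named genes, Tnf (0.10, at most 0.50 without ECH 1) turned to −0.18 without ECH 3, −0.04 without ECH 4 and −0.16 without HF 2, and S100a8 and S100a9 to −0.74 and −0.39 without HF 4, from 0.77 and 1.04 (at most 1.27 and 1.42, without ECH 4). Against ECH 1 and 2, 7 of the 112 named genes turned (Cx3cr1 −0.17, Ch25h −0.03, Ccl12 −0.15, Mmp13 −0.22, Fcgr1 −0.02, Adgre1 −0.17 and Tnf −0.47, from 0.55, 0.68, 0.64, 0.64, 0.35, 0.24 and 0.10). Under the remaining settings the other values of the named genes kept their direction, 899 on the same side of the threshold and 146 newly past it with all libraries of a setting, and 1255 on the same side with 1 library left out.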
